A study of Mus musculus with 8 samples.

Results

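The regions described here had a called peak of open chromatin in mouse muscle stem cells grown in culture with a control siRNA and none when the cells received an siRNA against LncMyod. A region was a run of overlapping ATAC-seq peaks from any library on chromosomes 1 to 19. It became a member when both LncMyod Control libraries had a peak in it and none of the other 6 libraries did. The rule found 1146 members among 139157 regions, or 0.824%. Members were thus chosen by the presence and absence of called peaks in all 8 libraries. No peak measure of these libraries is independent of that choice, so the values below are descriptions without a test.

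The study mapped open chromatin by ATAC-seq, in which a transposase inserts sequencing adapters where DNA is accessible, in satellite cells from hindlimb muscle of C57BL/6 mice. LncMyod Knockdown cells were cultured satellite cells given siRNA against LncMyod for 48 h before harvest, and LncMyod Control cells were cultured with a control siRNA for a time that the labels do not state. ASC were cells taken 2.5 days after an injury, and QSC were freshly isolated cells, both without siRNA. Each group had 2 libraries, no label gives the age of the mice, and none says whether replicates were separate animals or cultures. The cultures were grown for differentiation. Culture, siRNA transfection and differentiation came together in the LncMyod Control cells, so what separates them from ASC and QSC cannot be told apart, and peak lists carry no measure of how far LncMyod itself fell.

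Satellite cells are the stem cells of skeletal muscle. When they leave quiescence they express MyoD, a basic helix-loop-helix factor that binds E-boxes, short motifs of the form CANNTG, with E-protein partners. It opens chromatin at muscle genes and acts with myogenin, Mef2 and Tead factors to turn on genes of fusion and contraction. LncMyod is a long noncoding RNA transcribed from the neighbourhood of the MyoD gene, and MyoD binds its promoter.

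The knockdown libraries stood apart from each other. On chromosomes 1 to 19, LncMyod Knockdown replicate 1 had 93986 peaks over 63.0 Mb and replicate 2 had 78429 over 49.0 Mb, against 81404 peaks over 51.4 Mb and 79941 over 51.4 Mb in LncMyod Control replicates 1 and 2. ASC and QSC libraries had 58791 to 69136 peaks. The median −log10 q, the authors' adjusted significance of a peak, was 6.64 and 5.01 in LncMyod Knockdown replicates 1 and 2 and 8.83 and 8.21 in LncMyod Control. Read counts were not among the files, so depth is unknown, and a missing peak may be a closed site or one below the caller's threshold.

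Of the 18 members that covered a listed gene start, the promoter windows of 5 are shown because starts are the only sites of members whose sequence was used here. They are the 4 strongest at protein-coding genes and Cpa1, the window with the most CAGCTG motifs, picked after the values were seen. Each runs 5′ to 3′ from 250 bases before the start to 50 after it, from RefSeq on GRCm38.p6, and capitals mark the CANNTG motifs. Myh8, encoding the perinatal myosin heavy chain (chr11:67276874-67277173, plus strand), lies with its window wholly inside its member, as does Zbtb46, which encodes a zinc finger transcription factor (chr2:181424339-181424638, minus strand). Cd300c encodes a leukocyte receptor of the CD300 family (chr11:114960458-114960757, minus strand; 268 bases inside the member), Btbd8 a BTB domain protein (chr5:107497524-107497823, plus strand; 261 bases) and Cpa1 a pancreatic carboxypeptidase (chr6:30638968-30639267, plus strand; 143 bases).
Myh8: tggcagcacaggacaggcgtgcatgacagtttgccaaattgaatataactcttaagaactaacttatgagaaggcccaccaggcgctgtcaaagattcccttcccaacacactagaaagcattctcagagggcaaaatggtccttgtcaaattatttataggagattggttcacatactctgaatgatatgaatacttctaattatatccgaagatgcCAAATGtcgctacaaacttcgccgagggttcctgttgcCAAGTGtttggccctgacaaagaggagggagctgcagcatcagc
Zbtb46: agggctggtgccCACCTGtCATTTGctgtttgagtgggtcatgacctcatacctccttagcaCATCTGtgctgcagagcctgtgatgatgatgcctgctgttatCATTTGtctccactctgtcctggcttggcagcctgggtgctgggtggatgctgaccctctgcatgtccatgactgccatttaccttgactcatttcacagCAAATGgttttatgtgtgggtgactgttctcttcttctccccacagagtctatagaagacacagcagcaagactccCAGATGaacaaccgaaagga
Cd300c: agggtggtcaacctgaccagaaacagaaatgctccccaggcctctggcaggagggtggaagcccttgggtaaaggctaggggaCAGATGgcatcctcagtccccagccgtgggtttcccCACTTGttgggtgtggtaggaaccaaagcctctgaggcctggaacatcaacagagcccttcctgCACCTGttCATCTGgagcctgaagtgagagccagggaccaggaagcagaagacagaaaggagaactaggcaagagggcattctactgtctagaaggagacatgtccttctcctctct
Btbd8: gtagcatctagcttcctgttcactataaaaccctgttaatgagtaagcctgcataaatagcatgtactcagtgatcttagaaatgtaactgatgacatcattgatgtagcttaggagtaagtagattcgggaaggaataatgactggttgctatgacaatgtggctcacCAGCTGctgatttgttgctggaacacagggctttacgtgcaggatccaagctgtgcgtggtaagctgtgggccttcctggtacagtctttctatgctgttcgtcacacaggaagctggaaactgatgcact
Cpa1: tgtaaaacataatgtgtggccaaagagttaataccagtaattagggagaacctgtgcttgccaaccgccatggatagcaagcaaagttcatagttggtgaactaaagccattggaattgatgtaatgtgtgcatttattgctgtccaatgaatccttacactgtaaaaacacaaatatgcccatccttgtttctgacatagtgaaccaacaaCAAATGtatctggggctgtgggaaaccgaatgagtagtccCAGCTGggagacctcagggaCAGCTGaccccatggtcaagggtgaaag

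Myh8 had 2 E-boxes in its window, both toward its 3′ end, and Zbtb46 had 6, the most of these 5. Over all 18 windows, 16 held CANNTG (88.9%), against 72.2% of the 31365 promoter windows of the table. The E-box form that MyoD favours, CAGCTG, is counted in both. It stood in 5 of 18 windows (27.8%), against 16.3% of all windows. Windows under culture-only regions that kept a peak in both knockdown libraries had the same E-box share, 88 of 99 (88.9%), and 37 held the favoured form (37.4%). The AP-1 motif TGANTCA was found in 2 of the 18 windows (11.1%, against 7.85% of all windows). The Runx motif TGTGGT was found in 5 (27.8%, against 16.7%), and the Tead motif CATTCC in 0 (against 14.6%). All motifs were searched on both strands and over whole windows, so a counted motif may lie outside the member. Between 57 and 300 bases of a window lay inside its member. A match is a run of letters, not a binding site, 18 windows are few, and a window without a match says nothing of the factor.

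How often a culture-only region lacked a knockdown peak depended first on which knockdown library was read. LncMyod Control libraries shared 12088 regions that none of the 4 ASC and QSC libraries had, or 8.69% of all regions. Of these, 6663 (55.1%) had a peak in both LncMyod Knockdown libraries, 4044 (33.5%) in replicate 1 only, 235 (1.94%) in replicate 2 only, and 1146 (9.48%) in neither. Regions missing from replicate 1 were thus few and regions missing from replicate 2 many. Without LncMyod Knockdown replicate 1 the rule gave 5248 regions and without replicate 2 it gave 1381. Without LncMyod Control replicate 1 or 2 it gave 3719 and 4005.

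Without reading ASC and QSC, 1967 regions (1.41%) had peaks in both LncMyod Control and neither LncMyod Knockdown library. The reverse, peaks in both LncMyod Knockdown and neither LncMyod Control library, held for 3109 regions (2.23%). Of those 3109, 1783 were also without a peak in ASC and QSC. In LncMyod Knockdown replicates 1 and 2 these 1783 had a median fold of 2.42 and 2.50 and a median −log10 q of 1.71 and 1.75. They were thus weak within their own libraries, where the median −log10 q of all peaks was 6.64 and 5.01. Fold and −log10 q of members come from other libraries on scales that were not matched, so the 2 sets cannot be ranked by strength. By median merged width these 1783 were larger, 708 bp against 313 bp for members.

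Members were the weak end of the culture-only regions. In LncMyod Control replicates 1 and 2 their median fold enrichment over local background, the authors' value, was 3.20 and 2.95, against 4.30 and 3.93 for the culture-only regions kept in both knockdown libraries. Median −log10 q of the members was 3.46 and 3.11, below 8.11 and 7.25 for the kept regions. The median member stood at percentile 17.4 and 17.2 of all peaks of its library by −log10 q, and 18 members in replicate 1 and 7 in replicate 2 exceeded the median peak. Members were also narrow, with a median merged width of 313 bp and a range of 200 to 1954 bp, against 545 bp for kept regions. Strength and width belong to the peaks that the rule read, so these contrasts support nothing beyond a description.

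**Figure D1:**
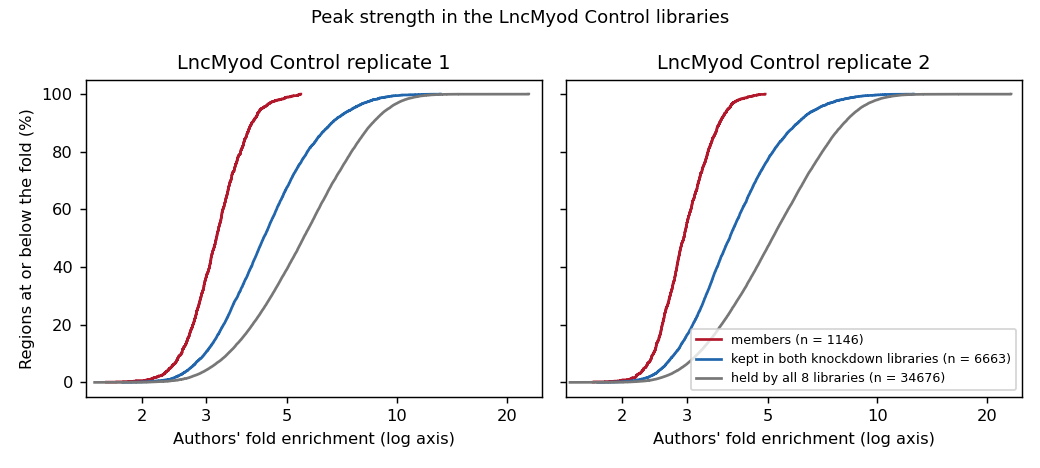
Cumulative share of regions (y axis, percent) by the authors' fold enrichment (x axis, log scale) in each LncMyod Control library, for members, for culture-only regions kept in both LncMyod Knockdown libraries and for regions held by all 8 libraries. The member curve lies to the left of the others in both panels, with medians of 3.20 and 2.95, and ends at 5.45 and 4.93.

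The share without a knockdown peak was lower in each stronger class of control peaks. Among culture-only regions whose weaker control peak had a −log10 q of 1 to 2, 295 of 1126 (26.2%) were members. The share was 18.4% from 2 to 3, 11.3% from 3 to 5 and 2.13% from 5 to 10, and above 10 it was 1 of 1897 (0.0527%). Regions held by replicate 1 of the knockdown only made up 40.4%, 46.0%, 44.8%, 28.1% and 4.38% of these 5 classes. Read the other way, the knockdown libraries shared 9551 regions that no ASC or QSC library had. Of these, 1783 (18.7%) lacked a control peak, a larger share than the 9.48% of culture-only regions without a knockdown peak. By class, it was 49.3% at a −log10 q of 1 to 2, and 11.4% and 2.42% at 2 to 3 and 3 to 5. Between 3 and 5, members thus made up a larger share of the control regions (407 of 3586) than their mirror image did of the knockdown regions (59 of 2440), while between 1 and 2 they made up a smaller one. The 2 comparisons class regions by different libraries, whose strength scales were not matched.

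**Figure D2:**
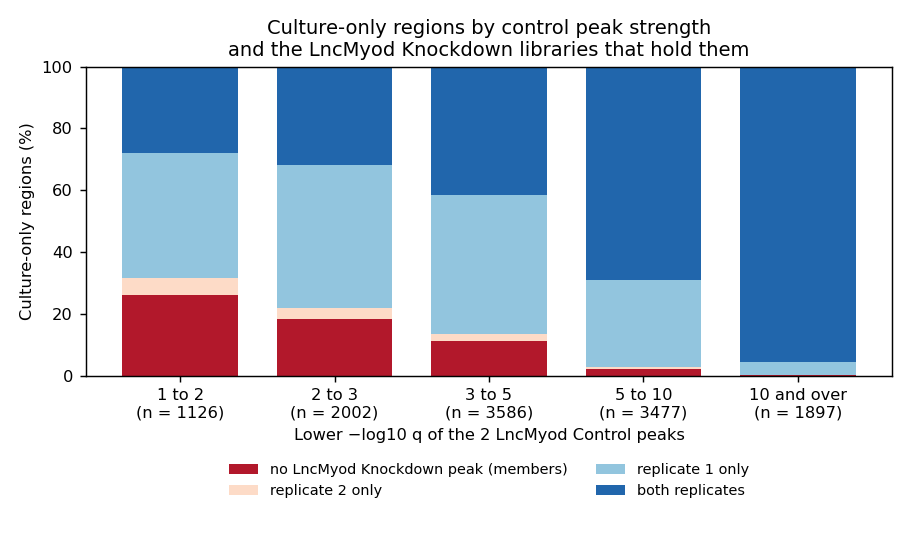
Share of the culture-only regions (y axis, percent) that had a peak in neither, 1 or both LncMyod Knockdown libraries, by the lower −log10 q of the LncMyod Control peaks (x axis, number of regions in brackets). Members make up 26.2% of the weakest bin and 0.0527% of the strongest, and regions held by replicate 1 only are the larger missing group in every bin.

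Only 75 members (6.54%) had a −log10 q of at least 5 in both LncMyod Control libraries, against 4219 of the kept regions (63.3%). Fold values of the control replicates ran together across members, with a Spearman rho of 0.617 over 1146 regions, and 0.833 over the 6663 kept regions. The members nearest to the threshold had a −log10 q of 1.01 in LncMyod Control replicate 1 (inside Rtn4rl1, a Nogo receptor relative), 1.05 in replicate 2 (651 bp from Zan) and 1.08 in replicate 2 (inside Syt11, a synaptotagmin gene). Just outside the rule, the strongest regions that missed it through 1 library all had a peak in LncMyod Knockdown replicate 1. The first (chr2:159866241-159866749) had a fold of 5.56 there, and 7.17 in both LncMyod Control replicates. The second (chr17:84926239-84926598) had 4.51 there, and 7.03 and 6.92 in LncMyod Control. The third (chr9:90830731-90831118) had 7.46 there, and 8.06 and 6.70 in LncMyod Control. Coordinates are those of the files, on mm10.

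Members stood near other peaks but mostly apart from them. The nearest peak of either LncMyod Knockdown library lay at a median of 3.80 kb (quartiles 1.95 and 8.63 kb). It was within 1 kb for 83 members (7.24%) and within 10 kb for 900 (78.5%). The closest lay 41 bp away. For the 1783 regions that only the knockdown libraries had, the nearest peak of either LncMyod Control library lay at a median of 6.41 kb, and 3.59% had one within 1 kb.

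**Figure D3:**
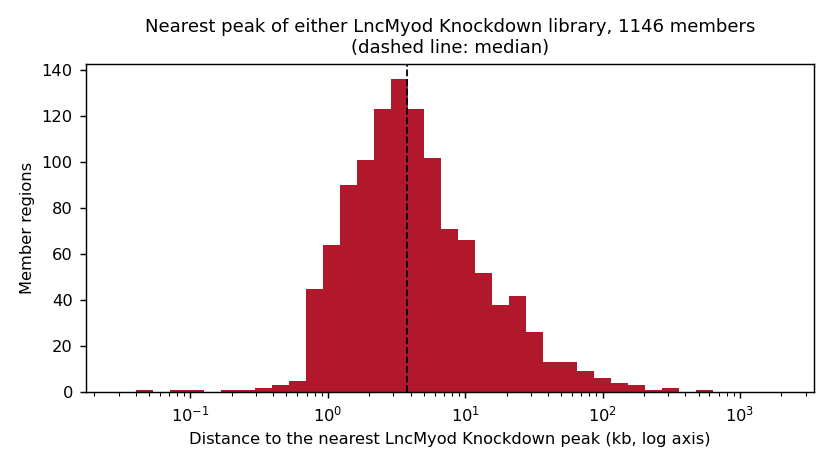
Number of members (y axis) by the distance in kb from the region to the nearest peak of either LncMyod Knockdown library (x axis, log scale). Most members fall between 1 and 10 kb, the dashed median is 3.80 kb, and 83 of 1146 lie within 1 kb.

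By position, members resembled the kept culture-only regions and not the constitutive ones. They lay inside a gene body in 721 cases (62.9%), against 67.8% of all regions, 62.1% of kept regions, 66.1% of regions that only the knockdown had, and 77.0% of regions held by all 8 libraries. Off chromosome 18, for which no starts were listed, 36 of 1118 members (3.22%) lay within 1 kb of a listed gene start, against 11.4% of all regions, 2.91% of kept regions, 4.88% of knockdown-only regions and 32.7% of regions held by all 8. The median distance to a start was 23.1 kb for members and 25.7 kb for kept regions. Exons and introns are not told apart here, since the annotation used gives whole genes. Across chromosomes, members made up between 0.602% of regions (chromosome 18, 28 members) and 1.01% (chromosome 2, 114 members).

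The strongest member lay inside Wscd1, a gene named for its WSC domain (chr11:71763185-71763488). It had no peak under LncMyod Knockdown and folds of 5.34 and 4.65 in LncMyod Control replicates 1 and 2, and the nearest knockdown peak was 4.32 kb away. Next came an intergenic region (chr13:83480432-83480750, folds 5.13 and 4.59) whose nearest knockdown peak was 20.4 kb off, and another (chr1:63395459-63395759, folds 5.17 and 4.52) with the nearest at 49.9 kb. Among the 15 strongest, 5 lay outside any gene and 10 inside one. Besides Wscd1 the genes were Slc24a3, an exchanger of sodium, calcium and potassium, Ttc28, Coro2b, an actin-binding coronin, Lpgat1, a lysophospholipid acyltransferase, the neural adhesion gene Dscam, Ccny, a cyclin Y gene, Spag16, Tll2, a tolloid-like protease, and Wdr72. Their lower control fold ran from 4.03 to 4.65, near the medians of 4.30 and 3.93 of the kept regions, and all 15 were 233 to 319 bp wide.

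Among the 10 strongest members over a gene start, the first was Myh8, whose sequence is printed above. The Myh8 member (chr11:67276801-67277282) had folds of 3.59 and 3.32 in the LncMyod Control replicates, and the nearest peak in knockdown cells lay 10.1 kb away. The Zbtb46 member had folds of 3.09 and 3.22, the Cd300c member 3.03 and 3.39, the Btbd8 member 3.76 and 3.02 and the Cpa1 member 3.24 and 2.71. Fcgr2b, an Fc receptor gene, and C5ar1, the complement C5a receptor, are expressed in leukocytes like Cd300c, and their members had folds of 3.22 and 2.94, and 3.04 and 2.70. The remaining 3 belonged to the long noncoding RNA genes 4930455C13Rik and Gm33604 and to Gm4791. None of the 18 start members reached a −log10 q of 5 in both control libraries.

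Because leukocyte genes appeared among these starts, the marker lists were read beside them. The 6 leukocyte markers had a summed covered length over their loci (gene body with 10 kb on both sides, scaled to a common total per library) of 11.1 and 15.4 kb in LncMyod Knockdown, 13.4 and 13.2 kb in LncMyod Control, 10.0 and 8.33 kb in ASC and 5.31 and 5.61 kb in QSC. In each library, 1 of the 5 with a listed start had a peak within 1 kb of it. Ptprc, encoding the pan-leukocyte antigen CD45, had no peak in its locus in either LncMyod Knockdown or QSC library. Itgam, an integrin gene of myeloid cells and the other leukocyte marker with a member, had 1.65 and 2.33 kb in LncMyod Knockdown against 1.31 and 1.29 kb in LncMyod Control, and none in QSC. Knockdown and control libraries overlapped in the summed length, and the part of leukocytes in these members was not tested. The 8 satellite cell and myoblast markers had 49.6 to 54.3 kb in the LncMyod Knockdown, LncMyod Control and ASC libraries and 43.5 and 44.8 kb in QSC, and each of the 4 with a listed start had a peak within 1 kb of it in all 8 libraries. Endothelial markers had 10.5 and 14.7 kb in LncMyod Knockdown and 14.2 and 12.2 kb in LncMyod Control, and fibroadipogenic markers had 8.84 and 9.74 kb in LncMyod Knockdown and 10.3 and 9.16 kb in LncMyod Control. Mural markers had 14.8 and 14.9 kb in LncMyod Knockdown and 13.0 and 13.9 kb in LncMyod Control, and glial markers had 15.7 and 15 kb in LncMyod Knockdown and 16.0 and 17.9 kb in LncMyod Control.

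Gene loci, again the body with 10 kb on both sides, held 783 of the 1146 members (68.3%), as they held 70.2% of all regions. Of 17544 protein-coding loci with any region, 885 (5.04%) held a member: 822 held 1, 59 held 2 and 4 held 3. The share was 21.0% for a kept culture-only region and 7.79% for a knockdown-only region. The 4 loci with 3 members were Ttn, encoding the giant sarcomere protein titin, Ttc28, the forkhead factor gene Foxp1, and Rere, encoding a nuclear receptor corepressor. Per 100 kb of locus, Ttn had 1.0 members, Rere 0.832, Ttc28 0.698 and Foxp1 0.486. Covered lengths of loci given below include the members, which by the rule only the control libraries cover, so part of any excess of control over knockdown is fixed by the choice of loci. On the common scale, both knockdown libraries lay below both controls at 36 of the 56 loci with a member whose lengths were computed. With the members left out it was 23 of 56, a reading added after seeing the data. The same count was not made over loci without a member, so neither count has a background to be set against. The remaining culture-only regions of these loci also needed a peak in both control libraries. Pla2g4b and Sptbn5, which share their members, both count among the 56. LncMyod Knockdown replicate 1 had the largest total covered length, 63.0 Mb, so the scaling lowered its values most.

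Ttn (chr2:76703980-76982557) held 7 culture-only regions, of which 3 were members, 4 had a peak in LncMyod Knockdown replicate 1 only, and none had one in both knockdown libraries. The locus had 31 and 4 peaks in LncMyod Knockdown replicates 1 and 2, 22 and 23 in LncMyod Control, 5 and 4 in ASC and 8 and 5 in QSC. Scaled covered length was 13.6 and 4.0 kb in LncMyod Knockdown, 15.6 and 13.7 kb in LncMyod Control, 3.55 and 3.13 kb in ASC and 3.17 and 2.17 kb in QSC. Without the members the controls had 13.4 and 12.5 kb. Replicate 1 of the knockdown thus lay near the controls and replicate 2 near the ASC libraries.

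The 3 titin members lay inside the gene, 49.7, 115.0 and 181.0 kb downstream of the start. In LncMyod Control replicates 1 and 2 their folds were 2.31 and 2.39, 2.80 and 2.29, and 2.80 and 2.49. The first had a knockdown peak 0.112 kb from its edge, the second 2.70 kb and the third 4.98 kb away. All 3 were weak, with a −log10 q of 1.19 to 2.27.

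Rere held 6 culture-only regions, 3 of them members and 3 with a peak in LncMyod Knockdown replicate 1 only. Its covered length was 12.2 and 8.54 kb in LncMyod Knockdown and 12.4 and 13.5 kb in LncMyod Control, with 11.1 to 15.1 kb in ASC and QSC. Foxp1 had 4 kept regions beside its 3 members, and 24.7 and 22.9 kb in LncMyod Knockdown against 26.8 and 27.7 kb in LncMyod Control. Ttc28 had 4 kept regions of 11 culture-only ones, and 24.6 and 24.2 kb in LncMyod Knockdown against 26.5 and 26.7 kb in LncMyod Control. Without the members the controls had 11.7 and 12.7 kb at Rere, which overlaps the knockdown, 25.9 and 27.0 kb at Foxp1 and 24.9 and 25 kb at Ttc28. No culture-only region of Rere had a peak in both knockdown libraries.

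The next loci by rule held 2 members each. They were Inpp5a, an inositol phosphatase gene, the ubiquitin ligase gene Ube3b, Qk, encoding the RNA-binding protein Quaking, Zbtb46, the sorting nexin gene Snx29, the GABA receptor gene Gabbr2, the kainate receptor gene Grik3, the RNA demethylase gene Fto, the overlapping pair Pla2g4b and Sptbn5, which share their members, and the actin oxidase gene Mical2. Qk had 3.37 and 2.40 kb in LncMyod Knockdown, 4.26 and 5.85 kb in LncMyod Control, and 3.91 to 6.83 kb in ASC and QSC, with no kept region, and 3.30 and 4.09 kb in LncMyod Control without the members. Ube3b had 5.09 and 4.64 kb in LncMyod Knockdown and 9.01 and 6.28 kb in LncMyod Control, or 6.91 and 5.74 kb there without the members. At the other extreme, Snx29 had 10 kept regions among 15 culture-only ones and 23.7 and 22.6 kb in LncMyod Knockdown against 25.7 and 23.6 kb in LncMyod Control. Gabbr2 had 20.6 and 18.4 kb in LncMyod Knockdown against 18.8 and 15 kb in LncMyod Control, and the groups overlapped.

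Loci of muscle genes held a member more often than the average gene, but they held other culture-only regions more often too. Over 7 lists of muscle genes with 247 genes, 29 loci (11.7%) held a member against 5.04% of all protein-coding loci with a region, and 104 (42.1%) held a kept region against 21.0%. These loci were longer, with a median of 49.6 kb against 41.1 kb. Counted by regions, 342 of 2894 regions there (11.8%) were culture-only, against 8.25% over all loci. Of those 342, 35 (10.2%) were members, close to the 9.71% over all loci, 184 (53.8%) were kept against 53.7%, and 117 had a peak in LncMyod Knockdown replicate 1 only. Members thus took a similar part of the culture-only regions at muscle genes as elsewhere.

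**Figure D4:**
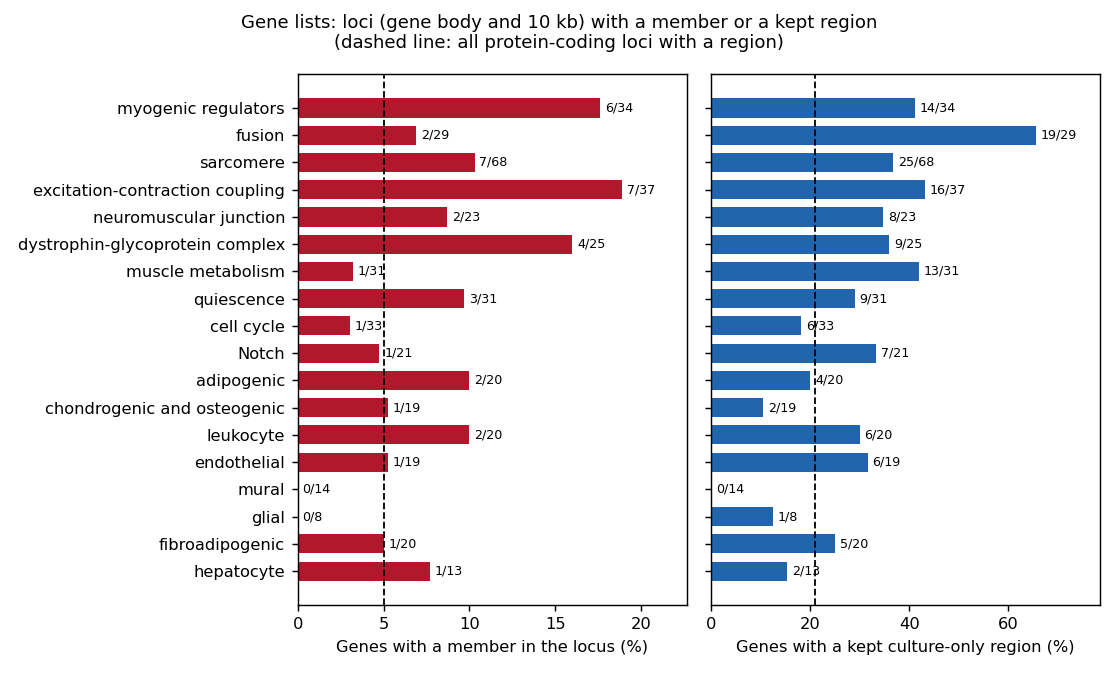
Share of the genes of each list (percent) whose locus held a member (left) or a culture-only region kept in both LncMyod Knockdown libraries (right), with counts beside the bars. Dashed lines mark 5.04% and 21.0% over all protein-coding loci with a region. Fusion genes, with long loci (median 116 kb against 41.1 kb), reach 19 of 29 for kept regions and 2 of 29 for members.

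The lists differed from each other in counts that are small. Members were 7 of 43 culture-only regions (16.3%) at myogenic regulators, 9 of 75 (12.0%) at sarcomere genes, 7 of 54 (13.0%) at excitation-contraction coupling genes and 5 of 38 (13.2%) at genes of the dystrophin-glycoprotein complex. They were 3 of 30 (10.0%) at neuromuscular junction genes, 2 of 31 (6.45%) at muscle metabolism genes and 2 of 71 (2.82%) at fusion genes. At fusion loci 42 of the 71 were kept (59.2%, against 53.7% over all loci) and 26 had a peak in LncMyod Knockdown replicate 1 only. The kept ones lay at 19 of 29 fusion genes, whose loci were long, with a median of 116 kb against 41.1 kb over all loci. Over the other lists the share of members ran from 0% at mural and glial genes to 33.3% (1 of 3) at hepatocyte genes. It was 18.2% (2 of 11) at adipogenic and 16.7% (2 of 12) at leukocyte genes, both above the 16.3% at myogenic regulators. At the remaining other lists it was lower than that. Genes with a member are given below, most of them chosen after their values were seen.

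Among myogenic regulators, Tead1, a TEA domain factor that binds the MCAT motif of muscle genes, held 2 members. It had 16.9 and 13.7 kb in LncMyod Knockdown, 17.7 and 19.4 kb in LncMyod Control, 18 and 16.4 kb in ASC and 21.2 and 18 kb in QSC, and controls and isolated cells overlapped. Its relative Tead4 held 1 member and 2 kept regions, with 7.01 and 7.31 kb in LncMyod Knockdown, 9.45 and 9.38 kb in LncMyod Control, 7.82 and 8.38 kb in ASC and 5.93 and 6.35 kb in QSC. Without the members LncMyod Control had 17.0 and 18.6 kb at Tead1 and 9.10 and 9.03 kb at Tead4, where it still had the most.

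Mef2d, a MADS-box partner of MyoD, had its member 1.79 kb upstream of its nearest listed start, with folds of 2.04 and 1.79 in LncMyod Control and a knockdown peak 0.994 kb off. Smyd1, a muscle methyltransferase, had its member 21.0 kb downstream of the start (folds 2.70 and 2.85). Smyd1 covered length was 3.90 and 3.62 kb in LncMyod Knockdown, 4.49 and 5.16 kb in LncMyod Control, 4.19 and 4.51 kb in ASC and 2.68 and 2.02 kb in QSC. Without the member LncMyod Control had 3.92 and 4.94 kb, and its replicate 1 was then close to LncMyod Knockdown replicate 1. Eya4, a transcriptional coactivator, and Mrtfa, a coactivator of serum response factor, held 1 member each.

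The central regulators held none, but their loci held at most 1 culture-only region each. Members were 9.71% of the culture-only regions over all protein-coding loci, so a lack of members at so few regions says little. Myod1 had 1 culture-only region, which was kept, and 2.75 and 3.71 kb in LncMyod Knockdown against 3.35 and 3.44 kb in LncMyod Control, with 2.98 to 3.54 kb in ASC and 2.02 and 2.20 kb in QSC. Myog, encoding myogenin, likewise kept its 1 culture-only region, with 5.28 and 4.25 kb in LncMyod Knockdown against 5.59 and 4.80 kb in LncMyod Control. Mymk, encoding the fusion protein myomaker, also kept its 1, with 5.92 and 3.48 kb in LncMyod Knockdown against 6.14 and 6.86 kb in LncMyod Control. Pax7 and Myf5, factors of satellite cells and myoblasts, had no culture-only region.

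Sarcomere loci with a member included Ttn, Myh8, Mybph, Tnnt3, Xirp2 and Nexn. Tnnt3, encoding fast troponin T, had its member just outside the gene, with folds of 2.36 and 2.38. The locus had 4.63 and 3.00 kb in LncMyod Knockdown, 6.44 and 4.29 kb in LncMyod Control, 1.13 and 0.657 kb in ASC and 1.67 and 1.94 kb in QSC, and knockdown and control overlapped. Mybph, a myosin-binding protein gene, had 4.76 and 2.49 kb in LncMyod Knockdown and 6.68 and 5.46 kb in LncMyod Control, above 1.27 to 2.21 kb in ASC and QSC. Its member lay beyond the gene, 16.9 kb downstream of the Mybph start and inside another gene, Adora1. The member had folds of 4.83 and 3.53, and a knockdown peak lay 0.294 kb away.

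Nexn, encoding the actin-binding protein nexilin, had 1.09 and 1.2 kb in LncMyod Knockdown, 2.32 and 2.28 kb in LncMyod Control, 1.74 and 2.37 kb in ASC and 1.28 and 1.39 kb in QSC. Xirp2, encoding an actin-binding Xin repeat protein, had 1.17 and 0.763 kb in LncMyod Knockdown and 1.68 and 1.61 kb in LncMyod Control. Without the members LncMyod Control had 2.11 and 2.08 kb at Nexn and 1.46 and 1.31 kb at Xirp2, and at Nexn ASC replicate 2 was higher than that. The Myh8 locus held 2 regions in all. It had 0.698 and 0.733 kb in LncMyod Knockdown, 1.28 and 1.10 kb in LncMyod Control, 0.842 and 0 kb in ASC and 1.01 and 1.08 kb in QSC. Without the member the Myh8 locus had 0.808 and 0.843 kb in LncMyod Control, below both QSC libraries.

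Excitation-contraction coupling genes with a member were Scn4a, Casq2, Trdn, Srl, Ryr3, Kcnma1 and Kcnn3. Scn4a, the sodium channel of skeletal muscle, had 3.47 and 2.69 kb in LncMyod Knockdown, 5.33 and 5.56 kb in LncMyod Control, 1.89 and 2.9 kb in ASC and 1.79 and 2.70 kb in QSC. Trdn, encoding triadin of the calcium release complex, had a member over one end of the gene with folds of 4.15 and 2.80, and 3.01 and 1.77 kb in LncMyod Knockdown against 3.42 and 3.46 kb in LncMyod Control. Casq2, encoding calsequestrin of the calcium store, held 2 kept regions and a member 15.3 kb into the gene, with 5.66 and 3.68 kb in LncMyod Knockdown and 7.17 and 6.07 kb in LncMyod Control. Without the members LncMyod Control had 5.08 and 4.60 kb at Scn4a and 6.94 and 5.80 kb at Casq2, above both knockdown libraries. At Trdn it then had 2.9 and 3.01 kb, which overlaps the knockdown.

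Srl, encoding sarcalumenin, and the potassium channel genes Kcnma1 and Kcnn3 had members with folds of 2.92 and 2.52, 3.35 and 4.31, and 2.85 and 2.59. Ryr3 encodes a ryanodine receptor, and its member had 2.58 and 3.21. The Kcnma1 locus was widest in QSC (24.1 and 24.1 kb) and had 14.7 and 14.5 kb in LncMyod Knockdown and 14.1 and 14.6 kb in LncMyod Control.

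**Figure D5:**
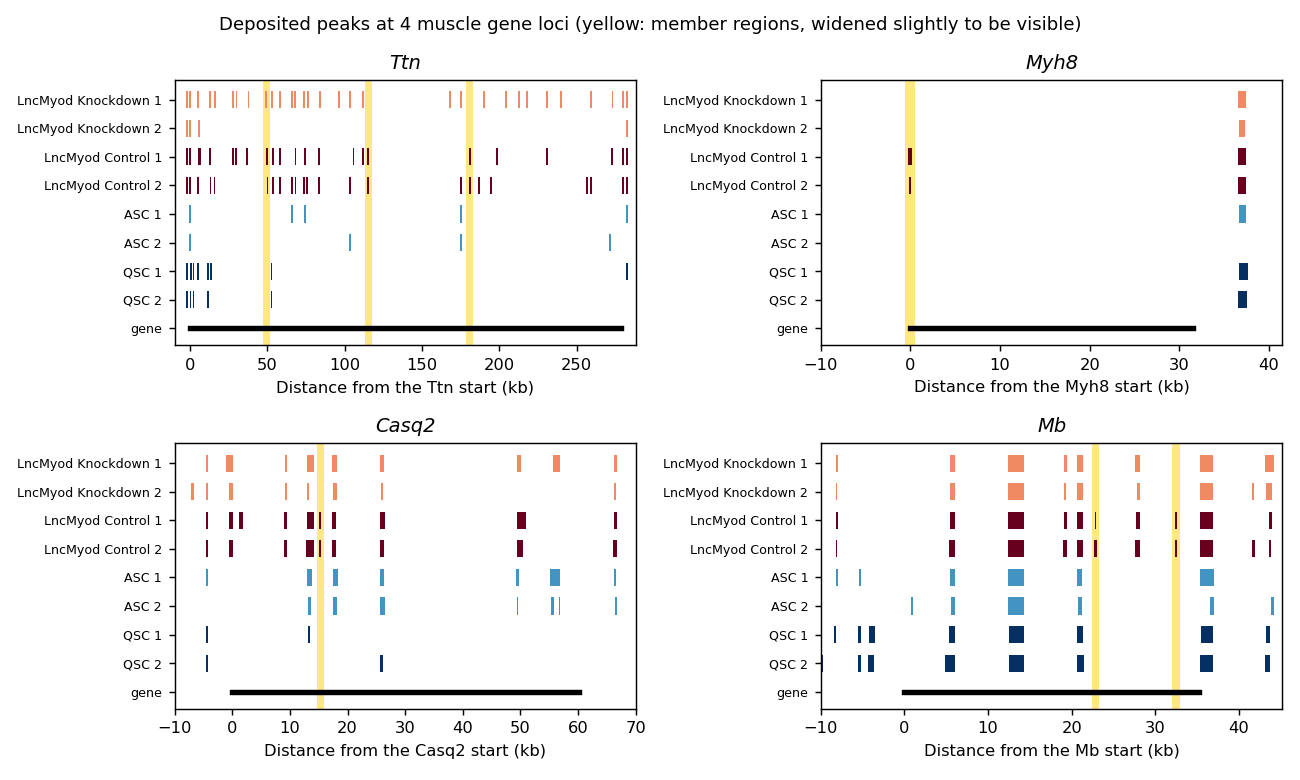
Deposited peaks (blocks) of each library (rows) at Ttn, Myh8, Casq2 and Mb, by distance in kb from the outermost listed start of the gene (x axis), with the gene as a black line and members in yellow. At Ttn, LncMyod Knockdown replicate 1 has 31 peaks and replicate 2 has 4, against 22 and 23 in LncMyod Control; at the Myh8 start, LncMyod Control libraries alone have a peak.

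Ncam1, the neural cell adhesion molecule of new myofibres and synapses, held 2 members, 3 kept regions and 6 with a peak in LncMyod Knockdown replicate 1 only. Its covered length was 20.6 and 12.3 kb in LncMyod Knockdown, 24.1 and 27.0 kb in LncMyod Control, 11.7 and 12.6 kb in ASC and 16.5 and 13.8 kb in QSC. Without the members LncMyod Control had 23.8 and 26.7 kb. Knockdown replicate 2 was within the range of the isolated cells, and replicate 1 was between them and the controls. Agrn, encoding agrin, which clusters acetylcholine receptors, held 1 member, with 1.94 and 2.55 kb in LncMyod Knockdown and 3.45 and 3.00 kb in LncMyod Control. Without the member LncMyod Control had 3.00 and 2.73 kb, which overlaps the 2.96 and 2.88 kb in ASC.

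Of the dystrophin-glycoprotein complex list, Utrn, encoding utrophin, Lama2, the laminin alpha-2 gene, and Pomgnt1, a glycosyltransferase gene, held 1 member each. Mb, encoding myoglobin, held 2 members 4.51 kb downstream and 5.05 kb upstream of its nearest listed starts, with folds of 2.3 and 2.06, and 2.61 and 2.38. Mb covered length was 5.74 and 6.68 kb in LncMyod Knockdown and 6.62 and 6.76 kb in LncMyod Control, and the groups overlapped. Elmo1 and Itga9, an engulfment adaptor and an integrin, were the fusion genes with a member, and Itga9 had 5 kept regions.

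The other lists gave 13 members among 124 culture-only regions (10.5%), a share near the 10.2% at muscle genes. They were at Foxo3, Col5a1 and Tgfbr3 of the quiescence list, Ccnb2 of the cell cycle, Rbpj of the Notch pathway, Pparg and Cebpb of the adipogenic list, Sox6 of the chondrogenic and osteogenic list, Ptprc and Itgam of the leukocytes, Flt1 of the endothelium, Dpp4 of fibroadipogenic cells and Pck1 of hepatocytes. The mural and glial lists had none among 3 and 4 culture-only regions. Rbpj, encoding the DNA-binding factor of the Notch pathway, had its member beyond the gene, with folds of 3.52 and 3.04. At Ptprc the member was 1 of 3 regions in the locus, with folds of 3.33 and 3.39, and the nearest knockdown peak was 82.0 kb away.

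In total, members covered 375 kb (0.729%) of the LncMyod Control replicate 1 peaks and 388 kb (0.755%) of those of replicate 2. All culture-only regions covered 4.11 and 2.96 Mb in LncMyod Knockdown and 5.05 and 5.03 Mb in LncMyod Control on the common scale. Without the members LncMyod Control had 4.68 and 4.65 Mb. Culture-only regions were chosen by a peak in both LncMyod Control libraries, so an excess of control there is in part fixed by that choice. Over the muscle lists the regions covered 1213 and 1142 kb in LncMyod Knockdown, 1312 and 1319 kb in LncMyod Control, 1130 and 1132 kb in ASC and 1110 and 1114 kb in QSC. Leaving the members out gave 1299 and 1308 kb in LncMyod Control. On the common scale, the lower covered length of the knockdown libraries at muscle loci was thus mostly outside the members. LncMyod Knockdown replicate 1 had the largest total, 63.0 Mb, so its lower value depends on the scaling. Unscaled lengths were not compared.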

How the data were processed

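The data were 8 lists of broad ATAC-seq peaks, 1 per library and not pooled. MACS2 2.1.1 is the peak caller listed in the submitters' processing notes, beside bedtools 2.26.0, SAMtools 1.3, Picard 2.9.2, Bowtie2 2.3.2, Trimmomatic 0.36 and bcl2fastq 2.19, with build mm10. No source used here gives their settings, a read shift for the transposase or the filter behind the lists. In the deposited lists a peak has a fold ratio over the local background of its library, −log10 p and −log10 q, and a score, all from the authors' peak caller. The lowest −log10 q was 1.00 to 1.01 and the narrowest peak 200 bp in each library. Peaks on chromosomes 1 to 19 were merged where they shared 1 bp, with numpy 2.4.6 and pandas 2.3.3, checked on simulated peaks. Where a library had several peaks in a region, the one of highest fold stood for it.

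Genes were the 20665 protein-coding and 12408 long noncoding RNA genes of RefSeq on GRCm38.p6, whose primary chromosomes have mm10 coordinates; 25748 of them had a listed start. Covered length was scaled to the median total of the libraries.

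Named regions were the 15 members with the highest lower control fold and the 10 such over starts. Named genes were the 15 with most members and, per list, those with 2 members or else the one with most member bp, plus Myod1, Myog, Mymk, Pax7 and Myf5. Members and lists were chosen with earlier results of these data known. No test was made, since the rule used every library. Some genes that the naming rule or the lists would give are not reported here, though the counts include them.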

Additional observations from a re-analysis of the deposited data

How the results depend on the processing

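No paired analysis was possible because the results come from no test. The count of 1146 members was 1131 with peaks merged across 500 bp, 1415 when a library had to cover 0.5 of a region or more, 1394 and 1395 with peaks of a −log10 q of at least 2 and 5, and 1175 with chromosome X. Of the 1146, 1121 remained members with the wider merging, 971 with that coverage, 851 and 75 at a −log10 q of 2 and 5, and all 1146 with chromosome X. With lists of equal length (58791 peaks) the count was 738, with 140 of the members among them. Leaving out 1 library gave 1179 to 5248 members and a share of culture-only regions of 8.26% to 43.1%, both highest without LncMyod Knockdown replicate 1. The share of 9.48% was 11.9% with that coverage, 10.6% and 11.7% at a −log10 q of 2 and 5, and 10.0% with equal lists. With control peaks of at least 5 and absence read from the full lists, an alternative chosen after seeing the data, 75 members and 1.4% were left.

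The share near a gene start was 14.8% within 5 kb, 1.61% over the start, 1.79% for protein-coding genes, 0% for members of a −log10 q of at least 5 and, chosen after seeing the data, 8.90% near either gene end. The share inside genes was 56.5% for protein-coding genes and 57.3% for those stronger members. The muscle share of 11.7% was 22.7% with 50 kb on both sides (11.0% of all loci) and 0.405% for stronger members (0.370% of all loci). Motif searches in the members themselves, away from starts, were not run because no genome was used. Unknown depth limits all absences.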

Other observations

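Applied to chromosome X, which the rule leaves out, the same criteria gave 29 regions of 2134 (1.36%) with a peak in both LncMyod Control libraries and none elsewhere, beside 89 kept culture-only regions. Chromosome Y had 19 regions and none of this kind.

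Of 919 miRNA hairpins listed on the autosomes, 21 (2.29%) lay within 10 kb of a member and 74 (8.05%) within 10 kb of a kept culture-only region. With 1146 members and 6663 kept regions, the 2 shares follow the size of the classes and cannot be set against each other. Among muscle miRNA genes, Mir206, Mir133b, Mir499 and Mir208b had neither a member nor any other culture-only region within 10 kb. Mir206, Mir133b and Mir499 had 2, 3 and 2 regions there that all 8 libraries held. Other muscle miRNA genes are not reported here. Hairpins near a member included Mir33, the miRNA of the sterol regulator gene Srebf2, with a gap of 1553 bp, and the pair Mir193a and Mir365-2, which share 1 member at gaps of 8765 and 5386 bp.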
